A study of Macaca fascicularis with 24 samples.

Results

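The genes for desmin (DES), vimentin (VIM), synemin (SYNM), dystrophin (DMD) and the LIM domain proteins CSRP1, CRIP2, FHL2 and PDLIM7 were followed in thoracic aorta from the cynomolgus macaque, Macaca fascicularis. They were chosen as parts of the intermediate filaments of the muscle cell and of the proteins that tie filaments, actin and the cell membrane together. All probe sets (groups of short probes that read 1 transcript) whose annotated symbol was one of 9 such genes were taken, which gave 15 probe sets of 8 genes among 22215 non-control probe sets. FHL1, the ninth gene, was not analysed here, and a probe set annotated to DES together with another gene was left out, so the DES results rest on 1 tested probe set. A probe set had to lie at or above the median of all probe-set means, 7.60 on the log2(intensity + 16) scale, to be tested, and 11 of the 15 did, among 11108 in all. The genes were picked with the age differences of these arrays already known: DES was known to be higher in old animals while other smooth muscle genes lay lower, and CRIP2 and FHL2 were known for the difference between the sexes. Every age value below is therefore a description.

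The study read aortic RNA on 24 single-colour human expression arrays, 6 for each combination of age and sex. Old males had a mean age of 20 years and young males of 6.6 years. Old females had a mean age of 21.2 years and young females of 7.2 years, and no treatment or genotype is given for any group. In 3 pairs of arrays of 1 group each the arrays were near-copies and were averaged, leaving 6 old males, 5 young males, 5 old females and 5 young females. The labels give group mean ages but do not state that each array is a separate animal, so errors and p-values measure the spread between these samples. The number of arrays limits the precision.

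Intermediate filaments form the tension-bearing network of the muscle cell. Desmin is the muscle filament protein, vimentin is that of mesenchymal cells, and synemin is built into filaments of either. Smooth muscle cells of large arteries are known to be rich in vimentin, with desmin in a varying share of the cells. In smooth muscle the filaments meet actin at dense bodies and dense plaques, where LIM domain proteins bind actin-associated proteins, and dystrophin links the actin cortex to the dystroglycan complex of the membrane.

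The samples did not all read alike. Across all probe sets, 6 samples (old males 2 and 4, young male 1, old females 2 and 6 and young female 3) stood apart: their 7 arrays had a median correlation with the other arrays of 0.809 to 0.828, against 0.878 to 0.935 for the other 17 arrays. Actin control probe sets at the 3′ end, set over those at the 5′ end as a measure of RNA integrity, gave log2 ratios of 0.79 to 1.73 on the 7 arrays and -0.25 to 1.15 on the 17, which overlap. The deposited median intensity was 234.4 to 264.1 on the 7 arrays and 144.2 to 212.1 on the 17. Why the 7 arrays differ was not tested. The tissue label was met by the smooth muscle contractile genes, of which 17 of 21 passed the filter. Of 24 striated muscle genes 6 passed, and CKM, MYL1, MYL2, TNNI1, TNNI2 and MYH7, which mark skeletal or heart muscle, lay below it on average. In single samples MYH7 reached 9.40 and MYL2 7.65 in young male 1, and MYL1 7.63 in old female 5. ACTC1, a striated gene that passed the filter, ran from 8.37 to 11.76. Its highest value was in old male 1, which also had the highest DES of all samples. Without young male 1 the DES difference between old and young males, given below as 1.62, was 1.60. Leaving out any 1 sample gave 1.33 to 1.95. The part of striated muscle in the DES values was not tested.

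DES was higher on average in old than in young males, by 1.62 ± 0.62 on the log2 scale (SE, 3.07-fold). In females the difference was 0.05 ± 0.65. By sample, DES (probe set 202222_s_at) read 12.86, 11.85, 11.03, 12.84, 10.89 and 11.31 on the log2(intensity + 16) scale in old males 1 to 6. It read 10.11, 10.26, 11.50, 10.01 and 9.01 in young males 1, 2, 3, 5 and 6. All old males except samples 3, 5 and 6 exceeded every young male, and young male 3 was the only young male above any old male. In the deposited intensities the old males ran from 2016.1 to 7531 with a median of 2833.75, and the young males from 474.8 to 3126.3 with a median of 1144.7.

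In old females DES read 12.52, 11.69, 9.98, 8.06 and 9.32 in samples 1, 2, 3, 5 and 6. Young females read 10.96, 9.47, 10.72, 10.43 and 9.72. Old female 1 was below only old males 1 and 4, and old female 5 was the lowest of all 21 samples, with every young female between them. Their SD was 1.80 in old and 0.64 in young females. Leaving out old female 1 turned the difference to -0.50, and leaving out old female 5 raised it to 0.62, and it was -0.17 with the actin ratio in the model. In males the same exercise gave 1.33 to 1.95. Whole aorta was measured, so fewer cells of a type and less RNA per cell cannot be told apart.

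**Figure D1:**
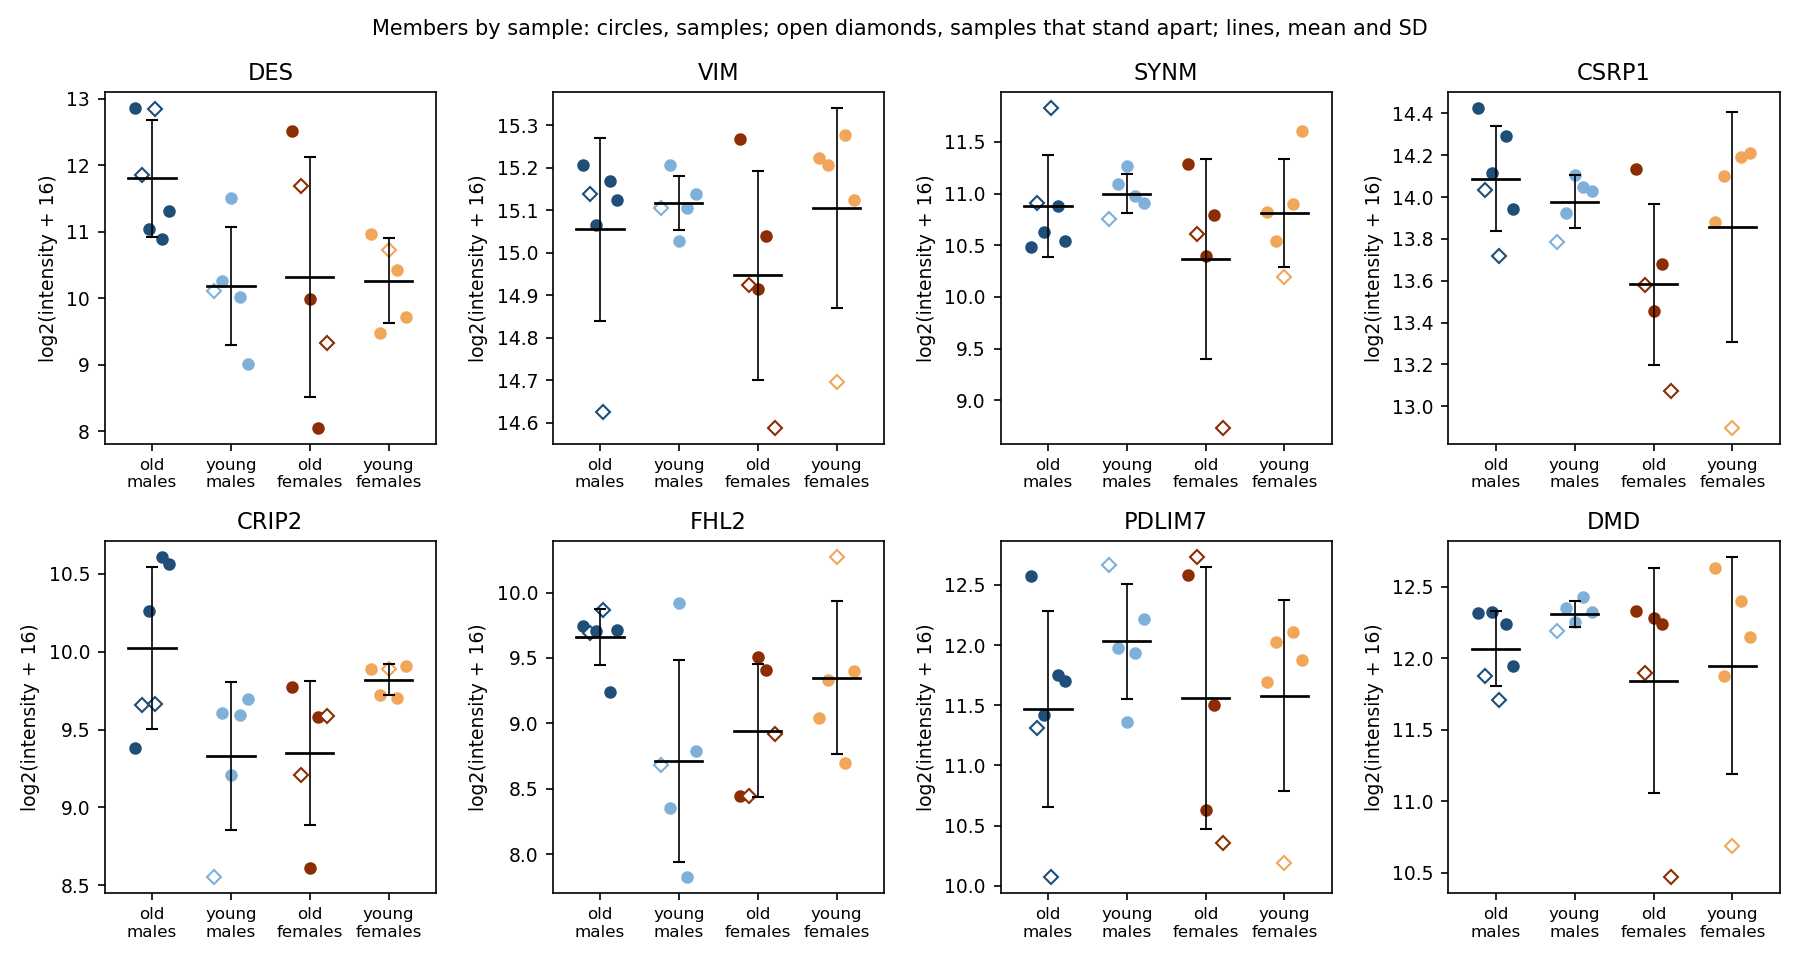
The log2(intensity + 16) of each gene's brightest probe set, 1 panel per gene, for old males (n = 6), young males, old females and young females (n = 5 each). Circles and open diamonds are samples, diamonds those that stood apart, and bars give the mean and SD: DES averaged 11.80 in old males and 10.18 in young males, while VIM, whose spread the normalisation bounds at the bright end, lay between 14.59 and 15.28.

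Both remaining filament genes gave smaller differences. VIM averaged 15.05 ± 0.22 in old males and 15.12 ± 0.06 in young males, and 14.95 ± 0.25 in old females and 15.11 ± 0.24 in young females (SD). Its difference with age was -0.06 ± 0.12 in males and -0.16 ± 0.13 in females (SE). In the deposited intensities VIM ran from 22284.2 to 52907.2 and was among the 80 brightest probe sets on every array. Quantile normalisation bounds the spread of such bright probe sets, so the small SDs are partly set by the method. With each array centred on its median instead, the SD of VIM within groups was 0.31, in place of 0.20, and the age difference was -0.25 in males and -0.21 in females.

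SYNM ranged from 10.48 to 11.83 in old males and from 10.76 to 11.26 in young males. Old females ranged from 8.74 to 11.29 and young females from 10.20 to 11.61. The lowest value belonged to old female 6 and the highest to old male 4, both among the samples that stood apart. The log2 difference with age was -0.12 ± 0.34 in males and -0.45 ± 0.36 in females, and the female value was -0.04 without old female 6.

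Of the LIM domain genes, FHL2 and CRIP2 had a higher mean in old than in young males and a lower one in old than in young females. FHL2 encodes an adaptor that binds integrins and transcription factors. It read 9.74, 9.69, 9.71, 9.86, 9.24 and 9.71 in old males 1 to 6, against 8.68, 8.35, 9.92, 7.83 and 8.79 in young males 1, 2, 3, 5 and 6. Old males lay close together, and all exceeded 4 of the 5 young males. Young male 3 was above every old male. The difference was 0.95 ± 0.31 (SE, 1.93-fold), and 1.25 without young male 3.

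FHL2 in females read 8.45, 8.44, 9.51, 9.41 and 8.91 in old samples 1, 2, 3, 5 and 6, against 9.04, 9.33, 10.27, 8.70 and 9.40 in young ones. The groups overlapped, with a difference of -0.40 ± 0.33. The highest and the lowest values of the 10 females were both from samples that stood apart, and without all 6 such samples the difference was 0.00.

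CRIP2, a small protein with paired LIM domains found in vascular and heart cells, read 9.38, 9.66, 10.26, 9.66, 10.61 and 10.56 in old males. Young males read 8.56, 9.60, 9.21, 9.59 and 9.70. Old males 3, 5 and 6 exceeded every young male, and the rest lay within the young range. The difference was 0.69 ± 0.26 (SE, 1.61-fold), and 0.50 without young male 1.

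Old females read 9.78, 9.21, 8.61, 9.58 and 9.58 for CRIP2, and young females 9.89, 9.72, 9.89, 9.71 and 9.90. Only old female 1 reached into the young range. Young females were the tightest group, with an SD of 0.10 against 0.46 in old females, and the difference was -0.47 ± 0.27. It was -0.28 without old female 3 and -0.57 without old female 1, and -0.26 with the actin ratio in the model. The male minus the female age difference was 1.16 ± 0.37 for CRIP2, 1.35 ± 0.45 for FHL2 and 1.57 ± 0.90 for DES. These 3 values fell in a contrast in which 2 of the 11 tested probe sets, FHL2 and CRIP2, and 1.94% of all probe sets had an unadjusted p below 0.05. Since FHL2 and CRIP2 were chosen from this contrast, nothing is read from that share.

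CSRP1, a LIM protein abundant in smooth muscle that binds alpha-actinin and zyxin, differed little with age in males. It ran from 13.72 to 14.43 in old males and from 13.79 to 14.10 in young males. Old females ran from 13.07 to 14.13 and young females from 12.90 to 14.21. The log2 difference was 0.11 ± 0.21 in males and -0.27 ± 0.21 in females, with all groups overlapping. With each array centred on its median it was -0.06 in males and -0.44 in females. The female value was -0.51 without young female 3, a sample that stood apart, and -0.02 with all 24 arrays counted.

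PDLIM7, whose PDZ and LIM domains join actin filaments to signalling proteins, had 5 probe sets, of which 3 were tested. The brightest, 203370_s_at, ran from 10.07 to 12.57 in old males and from 11.36 to 12.66 in young males. Old females ran from 10.35 to 12.73 and young females from 10.19 to 12.11. The male difference was -0.56 ± 0.45, but it was -0.28 without old male 4 and -0.01 without the 6 samples that stood apart.

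The other PDLIM7 probe sets did not all share that sign in males, with -0.16 ± 0.28 for 214121_x_at and 0.28 ± 0.69 for 214266_s_at. In females the 3 probe sets gave -0.02 ± 0.48, -0.47 ± 0.30 and -0.47 ± 0.72 in the same order. The probe sets varied together across the 15 samples that did not stand apart, where the brightest correlated with r of 0.77 and 0.76 with the others. Both untested PDLIM7 probe sets were dim, with group means of 6.04 to 7.24 and of 5.73 to 6.46.

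DMD, at the membrane end of the chain, read between 11.70 and 12.32 in old males and between 12.19 and 12.42 in young males by its brightest probe set, 203881_s_at. Old females read 10.47 to 12.33 and young females 10.69 to 12.63. The lowest female values came from old female 6 and young female 3, both samples that stood apart. The log2 difference with age was -0.24 ± 0.31 in males and -0.11 ± 0.32 in females. The female value was 0.24 without old female 6 and -0.42 without young female 3.

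A second DMD probe set, 208086_s_at, gave the other sign, with 0.28 ± 0.30 in males and 0.15 ± 0.31 in females. The pair of DMD probe sets correlated with r of only 0.28 over the 15 samples. The remaining DMD probe set, 207660_at, lay below the filter with group means of 6.96 to 7.42.

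**Figure D2:**
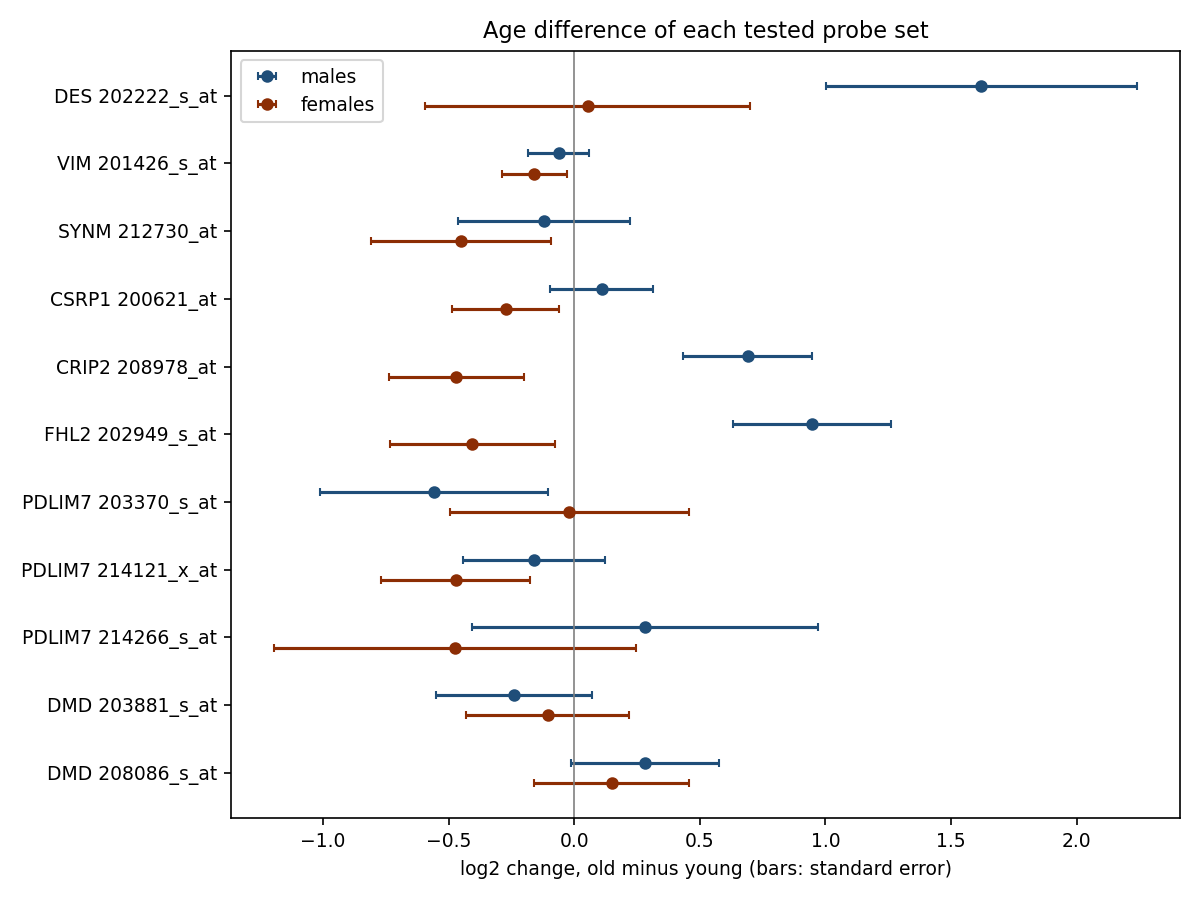
The log2 difference old minus young (x axis) of each of the 11 tested probe sets, in males and in females, with standard errors as bars. DES at 1.62, FHL2 at 0.95 and CRIP2 at 0.69 lay to the right in males, and only DES and the dimmer DMD probe set lay above 0 in females.

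No member passed the adjusted threshold in limma's test with Benjamini-Hochberg adjustment over all 11108 probe sets. In males 0 of 11 passed, against 0.018% of all probe sets. By unadjusted p below 0.05 the count was 3 of 11 in males, all higher (DES, FHL2 and CRIP2), against 3.36% of all probe sets, or 1.55% in the higher direction. In females 0 of 11 had an unadjusted p below 0.05, against 2.84% of all, and over both sexes 0 of 11, against 4.38%. The adjusted count in females and over both sexes was 0 among the members and 0% of all probe sets. Nothing is read from these counts, because the members were chosen on these contrasts. In 0 of 11 probe sets were old and young males free of overlap, against 0.666% of all, and in females 0 of 11, against 0.342%.

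CRIP2 and FHL2 were chosen from a difference between the sexes in the age effect. The mean difference between males and females over both ages is another contrast, and it was tested. It is nearly orthogonal to those that chose the members, but not exactly, since the groups are not all of equal size. None of the 11 probe sets passed (adjusted p = 0.9996 for each by limma), while 0.027% of all probe sets did. Males minus females, DES gave 0.70 ± 0.45 on the log2 scale (SE), with a 95% interval of -0.23 to 1.63. CSRP1 gave 0.31 ± 0.15, with an unadjusted p of 0.0469 by limma. It was the only member probe set with an unadjusted p below 0.05, 1 of 11, against 2.9% of all probe sets. The CSRP1 value was 0.18 without the 6 samples that stood apart and 0.19 without young female 3. Of the contractile genes 16 of 17 had a higher mean in males, against 3554 of all 6943 genes. The contractile median was 0.23, against 0.004 over all genes, with unadjusted calls for ACTG2 and MYH11. The mean of the contractile list was lowest in old female 6 (12.09) and young female 3 (12.56), both samples that stood apart. All 10 tested macrophage genes had a lower mean in males, with a median of -0.56 and 5 unadjusted calls (CSF1R, ITGB2, TYROBP, FCER1G and LYZ), and none of either list passed the adjusted threshold. The macrophage list mean ran from 8.61 to 9.38 in old males and from 8.41 to 10.42 in old females, and from 8.41 to 9.22 in young males and from 9.22 to 9.42 in young females. Its part in the sex values was not tested.

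For the other members the 95% interval reflects the spread between these samples after quantile normalisation. It does not cover the choice of method, which partly sets the small SD of VIM. VIM gave 0.06 ± 0.09, males minus females, with an interval of -0.13 to 0.24, and CRIP2 gave 0.09 ± 0.19, with an interval of -0.30 to 0.48. FHL2 gave 0.04 ± 0.23 (-0.43 to 0.51), and SYNM 0.35 ± 0.25 (-0.16 to 0.87). By the brightest probe set, DMD gave 0.29 ± 0.22 (-0.17 to 0.76), and PDLIM7 0.18 ± 0.33 (-0.50 to 0.87). The second DMD probe set, 208086_s_at, gave -0.06 ± 0.21. For PDLIM7, 214121_x_at gave -0.04 ± 0.20 and 214266_s_at 0.28 ± 0.50. The VIM difference changed sign under another scaling of the arrays, and those of SYNM and DMD without the 6 samples that stood apart.

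DES was set against 17 tested genes of the smooth muscle contractile apparatus, each read by its brightest probe set. These genes include the actins, myosin chains, calponin and tropomyosins that make up the contractile filaments. In old against young males 4 had a higher mean and 13 a lower one, with a median log2 difference of -0.13 and a range of -0.57 (SMTN, smoothelin) to 0.15 (TPM1, a tropomyosin). In females all 17 had a lower mean in old animals, with a median of -0.36 and a range of -0.88 (SMTN) to -0.02 (PPP1R12A, the myosin phosphatase targeting subunit). The median over all 6943 genes was -0.01 in males and -0.02 in females, with a lower mean for 3605 in old males and 3727 in old females. Of the 17 contractile genes 0 passed limma's test, adjusted or unadjusted, in either sex. DES had the highest age difference of the 18 genes in males, at 1.62 against 0.15 for TPM1. In females its 0.05 was also the highest, but its SE of 0.65 and its values of -0.50 without old female 1 and -0.17 with the actin ratio do not set it apart from the others.

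**Figure D3:**
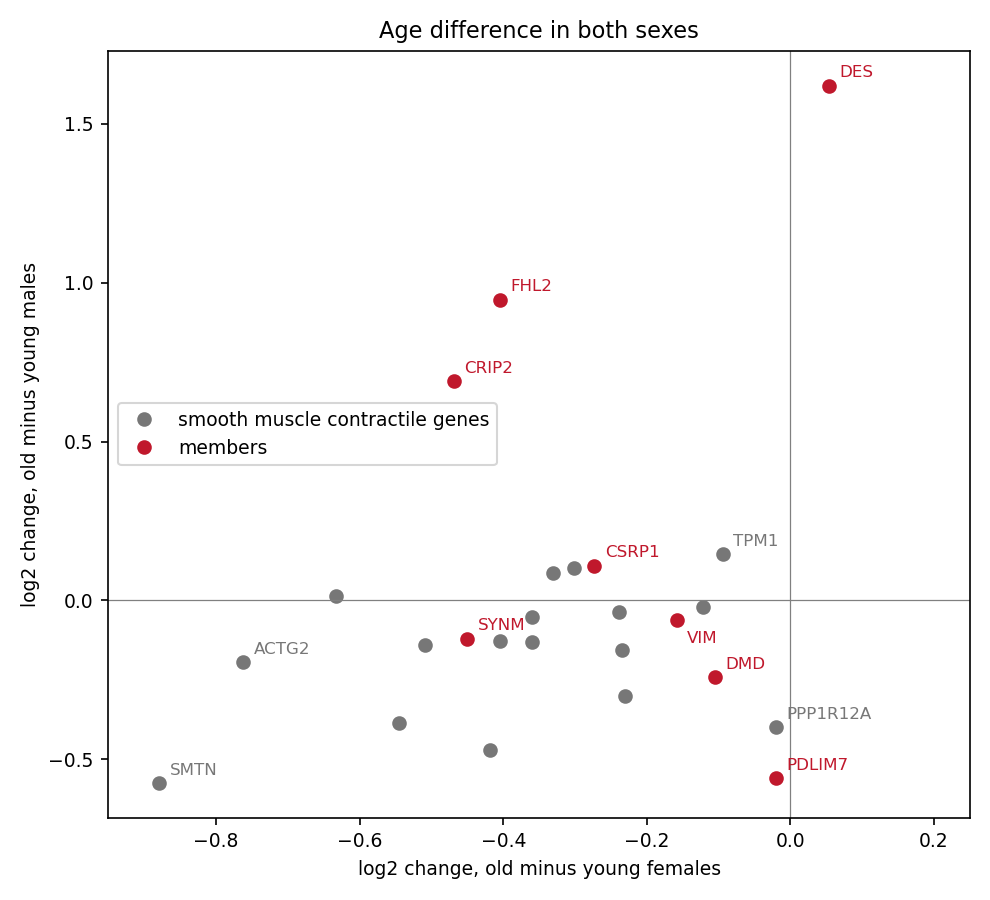
The log2 difference old minus young in females (x axis) and in males (y axis) for the 8 members and 17 smooth muscle contractile genes, 1 point per gene. DES sits alone at the upper right at 0.05 and 1.62, FHL2 and CRIP2 lie above the grey points in males, and VIM, SYNM, CSRP1, DMD and PDLIM7 lie among them.

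Within each sample DES was then expressed relative to the median of the 17 genes. The level of this difference has no meaning of its own, because it compares different probe sets, but it can be compared between samples. It was -1.28, -1.36, -2.95, -0.46, -2.81 and -2.26 in old males 1 to 6, against -3.45, -3.63, -2.48, -3.74 and -4.82 in young males 1, 2, 3, 5 and 6. Young male 3 alone lay within the old male range, above old males 3 and 5. The group means were -1.85 ± 0.98 in old males and -3.62 ± 0.83 in young males (SD), a difference of 1.77.

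In old females the value was -1.30, -1.94, -3.55, -5.25 and -3.01, against -2.79, -4.48, -2.12, -3.51 and -4.23 in young females. Old females again held both ends of the female range. The means were -3.01 ± 1.53 in old females and -3.43 ± 0.98 in young females, a difference of 0.42, while the SD within groups was 1.11. Without the 6 samples that stood apart, the age difference was 1.34 in males and 0.38 in females. The contractile median itself averaged 13.65 ± 0.37 in old males and 13.80 ± 0.16 in young males, and 13.32 ± 0.59 in old females and 13.69 ± 0.48 in young females.

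The sex difference of this relative DES level was tested, being nearly independent of the choice. Its mean was -2.74 in males and -3.22 in females, a difference of 0.48 with an exact two-sided permutation p of 0.344 over 116424 arrangements within age. A second DES probe set, 216947_at, was far below the filter, with group medians of 30.15 in old males, 34.65 in young males, 37.35 in old females and 32.8 in young females in the deposited intensities. It is too dim to give a reading of DES, and the values therefore rest on 202222_s_at alone.

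**Figure D4:**
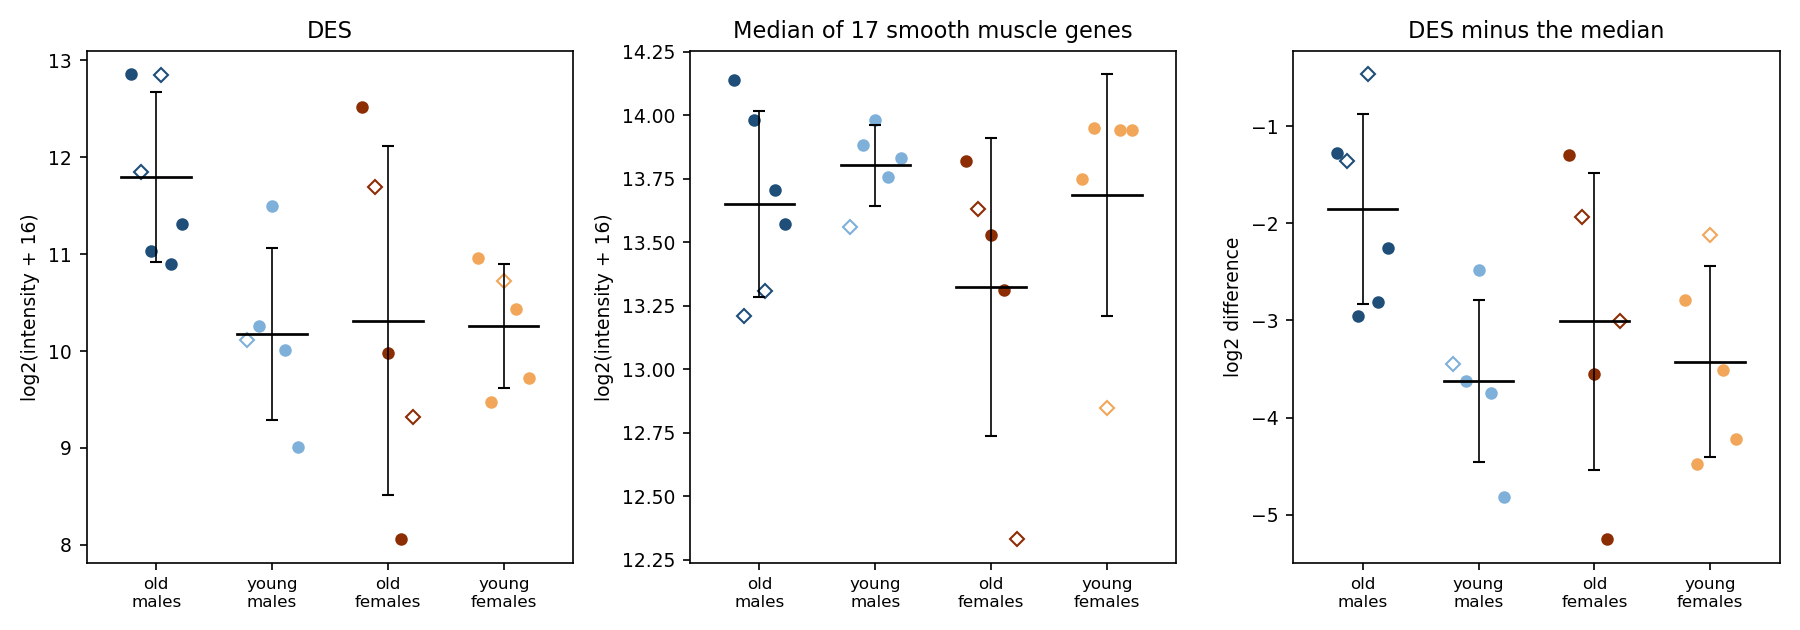
DES, the median of 17 smooth muscle contractile genes, and the first minus the second, per sample on the log2 scale, for old males (n = 6), young males, old females and young females (n = 5 each). Points are samples, diamonds those that stood apart, and bars the mean and SD: the relative level averaged -1.85 in old males and -3.62 in young males.

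DES varied widely within groups. Its SD was 1.13, above that of 97.7% of the 6943 genes and above all 17 contractile genes, which ran from 0.25 to 1.10 with a median of 0.53. With median centring, which does not bound bright probe sets, it was 1.12, above 97.2% of genes, and SMTN (1.38) and LMOD1 (1.16) then exceeded it. Of the other members, PDLIM7 had an SD of 0.82, SYNM 0.61, DMD 0.55, FHL2 0.54, CRIP2 0.43 and CSRP1 0.36 after quantile normalisation, where the median of all genes was 0.45. With median centring the SDs were 0.96, 0.72, 0.86, 0.54, 0.56 and 0.61 in the same order. PDLIM7 then lay above 94.1% of genes and DMD above 90.5%. CSRP1 lay above 69.5%, in place of 31.0% after quantile normalisation.

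Deviations from the group means were used to ask which members moved with the contractile genes from sample to sample. This was done in the 15 samples that did not stand apart, with 8 relations and 100000 permutations each. Each gene was read by its brightest probe set. Pearson and Spearman p-values were each adjusted over the 8 relations, not over both measures together. CSRP1 followed the mean of the contractile genes most closely, with Pearson r of 0.84 (permutation p = 0.0117, adjusted 0.0847) and Spearman rho of 0.66 (permutation p = 0.0515, adjusted 0.12). Without old females 3 and 5, the samples farthest from the median, r was 0.71. PDLIM7 had r of 0.74 (permutation p = 0.0585) and rho of 0.61 (permutation p = 0.0599), and r of 0.52 without these samples.

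DES had r of 0.69 (permutation p = 0.0626, adjusted 0.0847) and rho of 0.52 (permutation p = 0.119, adjusted 0.181), and r of 0.44 without old females 3 and 5. In the 6 samples that stood apart its r was 0.58 (permutation p = 0.243). VIM had r of 0.68 (permutation p = 0.0612) and rho of 0.49 (permutation p = 0.136), and r of 0.33 without these samples, so the relation rested on them. DMD had r of 0.47 (permutation p = 0.0291, adjusted 0.0847). Its rho of 0.64 was the only 1 of 8 to pass (permutation p = 0.00601, adjusted 0.0481), narrowly and with adjustment over the rho values alone. Its r was 0.59 without these samples.

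SYNM had r of 0.39 (permutation p = 0.295) and rho of 0.24 (permutation p = 0.49), and r of 0.01 without old females 3 and 5. FHL2 had a negative r of -0.41 (permutation p = 0.0635) and rho of -0.54 (permutation p = 0.0601), and r of -0.16 without them. CRIP2 had r of -0.08 (permutation p = 0.876) and rho of -0.13 (permutation p = 0.731), which became -0.72 without them. In all, 0 of 8 Pearson correlations passed after adjustment. With each array centred on its median in place of quantile normalisation, CSRP1 did pass, with r of 0.90 (permutation p = 0.00157, adjusted 0.0126), while the rho of DMD no longer did (0.70, permutation p = 0.0148, adjusted 0.0592). The samples farthest from the median were then old female 5 and old male 6, and without them the r of CRIP2 was 0.02.

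Taken gene by gene, and as a description over the same 15 samples, DES correlated most with MYH11, the smooth muscle myosin heavy chain (r = 0.76), then PPP1R12A (0.71), TPM1 (0.68) and ACTA2, smooth muscle actin (0.67). It was least like VCL, vinculin (-0.17), and LMOD1, leiomodin (0.16). Over all 21 samples these values were lower for the first 4, at 0.57 for MYH11, 0.38 for PPP1R12A, 0.37 for TPM1 and 0.52 for ACTA2. Among the members, VIM and PDLIM7 had r of 0.88, CSRP1 and PDLIM7 0.76, VIM and CSRP1 0.60, and VIM and FHL2 -0.65. DES correlated with VIM at 0.45 and with CSRP1 at 0.48. Over all genes and all 21 samples the patterns most like DES were those of RIOX1 (r = 0.75), INSR (0.70), PTMA (0.68), LAMC1 (0.68), MAP3K12 (0.67), PIAS4 (0.66), BCHE (0.66) and TENT4A (0.66). Over the 15 samples these 8 genes had r between 0.62 and 0.93. None of these is a contractile gene, and their age difference in males lay between -0.52 and 0.03. All these correlations share arrays and array quality.

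The red blood cell gene HBB, beta-globin, was set beside DES after its values were seen. The 4 samples with the most HBB were young female 6 (15.21), old female 5 (15.12), young male 6 (15.03) and old female 6 (14.87). DES in them was 9.72, 8.06, 9.01 and 9.32, which included the 3 lowest values of all 21 samples. Low DES also occurred with low HBB, as in young female 2 (DES 9.47, HBB 9.99). HBB averaged 11.08 ± 1.60 in old males and 11.25 ± 2.22 in young males, and 13.13 ± 1.93 in old females and 10.95 ± 2.43 in young females (SD). With the HBB level in the model, the DES difference with age was 1.56 in males and 0.80 in females, in place of 1.62 and 0.05.

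**Figure D5:**
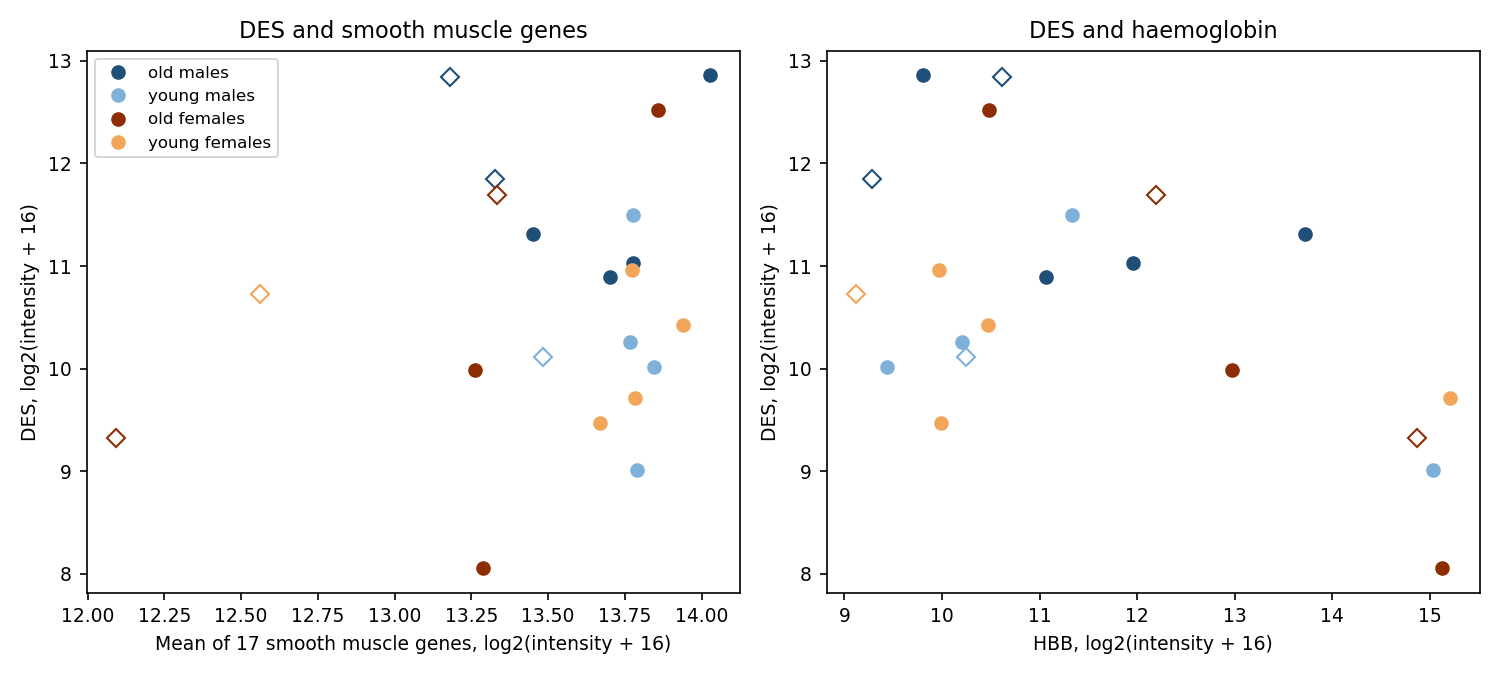
DES on the y axis against the mean of 17 smooth muscle contractile genes (left) and against HBB (right), 1 point per sample, all as log2(intensity + 16). Colours give the group and open diamonds the samples that stood apart: the 4 samples with HBB from 14.87 to 15.21 had DES between 8.06 and 9.72.

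Marker lists of other cell types were read for old against young animals, with no adjusted call in either sex. By unadjusted p below 0.05, limma called 3.36% of all probe sets in males and 2.84% in females. Of all 6943 genes 3338 had a higher mean in old males and 3216 in old females. Adipocyte genes, 10 of 14 tested, had a higher mean in old males for 9, with a median log2 difference of 1.46 and 3 unadjusted calls, and the mean of the list ran from 7.99 to 12.05 in old males and from 7.71 to 11.26 in young males. For females the adipocyte median was 0.15, with 7 higher and 3 lower. Endothelial genes, 11 of 14 tested, had a higher mean in old males for 10, with a median of 0.28 and 3 unadjusted calls (TEK, ENG and ROBO4). The list mean ran from 8.44 to 10.29 in old males and from 8.68 to 9.23 in young males. For females the endothelial median was -0.13, with 5 higher and 6 lower and 1 unadjusted call (VWF, lower). The male minus the female age difference was above 0 for 10 of these 11 genes, with a median of 0.41 and 2 unadjusted calls. With the adipocyte mean in the model the male age difference was 1.88 for DES, 0.85 for CRIP2 and 0.96 for FHL2. With the endothelial mean it was 1.53 for DES, 0.80 for CRIP2 and 0.78 for FHL2.

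Striated muscle also uses desmin, dystrophin and FHL2, so its markers were read too. The 6 tested striated genes had a median difference of -0.20 between old and young males, 2 higher and 4 lower, and of 0.11 between old and young females, 4 higher and 2 lower. In males the differences ran from -0.71 ± 0.33 (TNNC2, the only unadjusted call) to 0.56 ± 0.41 (ACTC1, SE). The mean of the 6 genes ran from 7.97 to 8.77 in old males and from 7.95 to 9.15 in young males. Genes of fibroblasts, which also express vimentin, gave 2 higher and 8 lower means of 10 tested in either sex, with medians of -0.35 in males and -0.28 in females. The unadjusted calls in males were the collagen genes COL1A2 (-0.96 ± 0.23), COL1A1 (-1.11 ± 0.39) and COL3A1 (-0.80 ± 0.31, SE), and in females there was 1.

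The partners of the members were read from lists that left the members out, over both sexes, and none of their genes passed the adjusted threshold of limma. Of the intermediate filament partners, 11 of 18 were tested, 6 with a higher and 5 with a lower mean in old animals and a median of 0.08. The cytoskeletal crosslinker MACF1 gave -0.41 ± 0.18, old minus young (SE), the only unadjusted call. The desmosomal filament anchor DSP gave 0.71 ± 0.73, the desmin-binding syncoilin gene SYNC -0.59 ± 0.40, and the epithelial keratin KRT8 0.22 ± 0.41.

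Of the dystrophin complex 9 of 17 genes were tested, 2 with a higher and 7 with a lower mean and a median of -0.08, and there was no unadjusted call. LAMA2, the laminin chain bound by dystroglycan, gave 0.26 ± 0.19, and UTRN, the dystrophin homologue utrophin, 0.23 ± 0.16. The membrane components SSPN (sarcospan) and SGCB (a sarcoglycan) gave -0.23 ± 0.39 and -0.19 ± 0.37.

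Of the other LIM domain proteins, 23 in the list, 19 were tested, 5 with a higher and 14 with a lower mean in old animals and a median of -0.20. The unadjusted calls were PDLIM1, which binds alpha-actinin, at -0.48 ± 0.20, and TGFB1I1, the focal adhesion protein Hic-5, at -0.45 ± 0.17 (SE). PDLIM3, another alpha-actinin binder, gave -0.64 ± 0.31, and CRIP1, a small relative of CRIP2, gave 0.59 ± 0.35. Over all genes in this contrast the median was -0.01, and 3707 of 6943 had a lower mean. By limma 4.38% of all probe sets had an unadjusted p below 0.05. Set beside the partner genes over both sexes, DES gave 0.84 ± 0.45, FHL2 0.27 ± 0.23, CRIP2 0.11 ± 0.19 and CSRP1 -0.08 ± 0.15. SYNM gave -0.28 ± 0.25, PDLIM7 -0.29 ± 0.33, DMD -0.17 ± 0.22 and VIM -0.11 ± 0.09.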

How the data were processed

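Per the labels' protocols, RNA was extracted with phenol and chloroform and labelled with biotin. The files hold 1 linear intensity per probe set and array, as deposited by the authors, whose steps of summarising and scaling are not given in the sources used here. With 2% left off each end, the mean was about equal on every array. Human probes read macaque RNA, which can dim a probe set on all arrays. Intensities were turned into log2(intensity + 16) and quantile normalised with limma 3.58.1 in R 4.3.3, over 22215 of 22277 probe sets (62 controls left out). The pseudocount understates changes of dim genes. Of the probe sets, 19064 had 1 symbol in the platform annotation, 1043 several (given no name) and 2108 none. Each gene was read by its brightest tested probe set.

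Groups came from the titles. Of 276 array pairs, 3 (young males 3 and 4, old females 1 and 4 and young females 3 and 4) were near-copies, above a correlation of 0.65 of their deviations (at least 0.79, against at most 0.57 in the rest), and differed with an SD of at most 0.38, against at least 0.43. Each was counted as 1 sample under its lower number. A mean per group was fitted to 21 samples by limma with an intensity trend and Benjamini-Hochberg adjustment at 0.05. The members and lists were chosen with earlier results of these data known. All probe sets of the members are described; of other genes, the rule named those most like DES, any contractile gene as a comparison for DES, cell type markers with their list, and up to 4 genes per partner list with the largest age difference over both sexes. The nerve list (2 of 9 genes tested) and the macrophage list (10 of 12, with medians of 0.20 in males and 0.35 in females, old minus young) were also read. In data simulated for the male contrast on 11108 probe sets, 48% of changes of 1 and 90% of changes of 2 on the log2 scale were recovered, with 3 false among 141 calls. The simulated noise was independent for each probe set, without the shared array quality of the real samples. DES also varied more than most genes, so these shares do not give the recovery for the members.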

Additional observations from a re-analysis of the deposited data

Results flagged for a closer look

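Among 44 sets of values, a member probe set in a group, 9 held a highest or lowest sample farther from the rest than Dixon's 95% limit allows. Chance would give about 1 in 20 if the sets were independent, but they share the same 21 samples. The share over all probe sets is not given, so nothing particular to the members is read from the count. Of the 9, 8 lay on samples that stood apart from the others over all probe sets, which were picked for that distance. On young female 3, CSRP1 read 12.90 (the next 13.88), VIM 14.70 (next 15.12) and the brightest PDLIM7 probe set 10.19 (next 11.69). On old male 4, VIM read 14.63 (next 15.07), the PDLIM7 probe set 214266_s_at 6.42 (next 8.60) and SYNM 11.83, which was high (next 10.91). The brightest DMD probe set read 10.47 on old female 6 (next 11.89), and the DMD probe set 208086_s_at 7.13 on young male 1 (next 8.11). FHL2 on old male 5, which did not stand apart, read 9.24 (next 9.69). The samples that stood apart averaged lower than the other 15 in 9 of the 11 tested probe sets, from PDLIM7 214266_s_at (7.25 against 9.12) to VIM (14.85 against 15.14). The exceptions were DES (11.09 against 10.53) and FHL2 (9.31 against 9.14). The part of RNA quality in these values was not tested.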

How the results depend on the processing

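No member passed the adjusted threshold in any of 5 contrasts under any of 36 settings; the smallest adjusted p was 0.131 (FHL2 in males, with array weights). Against 2 probe sets called for age in males, 0 were called with median centring, no filter, a stricter filter on dim probe sets, a pseudocount of 64, no variance trend, or the HBB or adipocyte level as covariate, 1 with the actin ratio as covariate, and 25 with array weights; leaving out 1 sample gave 0 to 2. For age over both sexes, 0 became 1 without the 6 samples that stood apart and 1 with the replicate block, and for sex 3 became 6 without the filter, 5 without the 6 samples and 5 with array weights (3 to 5 leaving out 1 sample). At an unadjusted p below 0.05, males gave 651 without the 6 samples, 804 with the actin ratio, 1213 with array weights and 603 with the adipocyte level, against 373; females gave 475 with all 24 arrays counted, 575 without the 6 and 493 with the endothelial level, against 315; both sexes gave 760 without the 6, against 486; the difference gave 349, 401, 577, 387 and 531 (all arrays, without the 6, actin, weights, adipocyte), against 216; and sex gave 552, 502 and 498 (without the 6, actin, weights), against 322. With no filter the counts were 872, 890, 1128, 640 and 786, and with the stricter filter 180, 140, 243, 102 and 158, since more or fewer probe sets were tested. Leaving out 1 sample gave 301 to 560 in males (most without young male 1), 237 to 667 in females (most without old female 1; 529 without old female 3 and 487 without young female 3), 366 to 741 over both sexes (most without old female 1; 737 without young male 1), 162 to 323 for the difference and 237 to 506 for sex (most without old female 1). The sex effect of VIM became -0.016 with median centring, -0.044 as deposited and -0.010 without the 6 samples; that of SYNM -0.049 and that of DMD -0.00063 without the 6; that of CRIP2 -0.0035 with the actin ratio and -0.0024 to 0.19 leaving out 1 sample; that of FHL2 -0.11 to 0.16 leaving out 1 sample. Without the 6 samples, the difference of the age effects was -0.28 for SYNM and 0.34 for PDLIM7. DES relative to the contractile median differed by 0.44 between old and young males and by -0.47 between males and females when read by 216947_at, which is too dim to read DES; leaving out 1 sample gave 1.47 to 2.06 in males, -0.01 to 0.98 in females and 0.20 to 0.69 for sex. Where no reason is given, the cause was not tested. Whether replicate numbers pair samples was not settled. Of 30 same-number pairs 14 had r above 0.1 (median 0.06, range -0.42 to 0.51), without pairs of other numbers to set beside them. The replicate block gave 2 calls in males, and moved no other adjusted count than that over both sexes. The HBB, adipocyte and endothelial covariates were chosen after seeing the data.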
